A study of Homo sapiens with 12 samples.

Results

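MicroRNA pathway genes were examined as a set of 10: the Argonaute genes AGO1, AGO2, AGO3 and AGO4, the GW182 family genes TNRC6A, TNRC6B and TNRC6C, and the processing genes DICER1, DROSHA and DGCR8. A cluster, a stretch of RNA in which crosslinked reads piled up and were called as one interval, was assigned to a gene when its midpoint lay within the gene on the same strand in the GENCODE annotation. Of the 102250 clusters in the 12 libraries, 171 lay in these genes, or 0.167%, and none of the 171 lay in another gene on that strand. Clusters that shared at least 1 nt on one strand were merged across libraries, which left 72 sites of 45174 in all. Sites are numbered within each gene from its 5′ end.

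All libraries came from wildtype HepG2 cells, a human hepatocellular carcinoma line, by PAR-CLIP, in which cells take up 4-thiouridine (4SU), are crosslinked with long-wave ultraviolet light and are lysed, digested with RNase T1 and immunoprecipitated for one protein. IGF2BP1, IGF2BP2, IGF2BP3, METTL1 and WDR4 had 2 libraries each, and a second IGF2BP3 set labelled bio2 had 2 more. The 8 IGF2BP libraries are called readers here and the 4 METTL1 and WDR4 libraries writers, after the role of IGF2BP proteins as readers of internal m7G in RNA and of METTL1 with WDR4 as a methyltransferase that deposits it. No input or mock library was analysed here, a replicate was 8 plates of 1 line, and the labels do not say whether replicates were independent cultures, so that spreads may be technical.

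As background, DROSHA and its partner DGCR8 form the Microprocessor, which cuts primary microRNA transcripts in the nucleus, and DICER1 cuts the exported hairpins into short duplexes in the cytoplasm. One strand is loaded into an Argonaute protein, which recruits a TNRC6 protein, and TNRC6 brings in deadenylases that silence the target mRNA. The mRNAs of several of these genes have long 3′ UTRs. IGF2BP proteins bind mRNA through KH and RRM domains, often in 3′ UTRs, and CA-rich elements such as CAU are among the letters reported for them.

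The sequences under 10 exonic sites show what the clusters covered. They are examples, each found in 3 to 7 of the 12 libraries, chosen to show pyrimidine-rich sites beside G-rich ones, and sites of AGO2, AGO3 and AGO4 are not among them. Each line gives 30 nt of hg38 centred on a site, 5′ to 3′ on the transcribed strand, with CATA, CATC or CATT (the RNA element CAU followed by a base other than G, searched on that strand only) in capitals. The positions are chr22:40334789-40334818, chr22:40332289-40332318 and chr22:40334704-40334733 for TNRC6B sites 17, 13 and 16, chr14:95104053-95104082 and chr14:95090257-95090286 (both minus strand) for DICER1 sites 3 and 5, chr5:31526731-31526760 (minus strand) for DROSHA, chr22:20111411-20111440 for DGCR8, chr16:24823666-24823695 for TNRC6A site 9, and chr1:35922553-35922582 and chr1:35920981-35921010 for AGO1 sites 4 and 3.
TNRC6B site 17: cctctcctcctccctccacgtctctctttg
TNRC6B site 13: tttctcttcctacccacCATCcctctctct
TNRC6B site 16: acgcaggaggacctggggggcgtagcagag
DICER1 site 3: aatctttCATCtcaatttctaactcctctt
DICER1 site 5: aaacacaatcttatcttctttcctcacttc
DROSHA site 1: ccccttccaccactttctcaaactctccag
DGCR8 site 1: cccacaaCATAtccttccctcactacctgt
TNRC6A site 9: ttcactctgggggaccccgCATTattccac
AGO1 site 4: cttcctttcccttttcttctattcactctg
AGO1 site 3: ctgacctggctaggtagggagggggtggtt
Both TNRC6B site 17 and TNRC6B site 13 held 27 pyrimidines in 30 nt. TNRC6B site 16 and AGO1 site 3 stood at the other end, each with 15 G in 30 nt. Over the 44 exonic sites of the 10 genes the median pyrimidine content was 68.8%, beside 64.0% over all 18681 exonic sites, and the median G content was 4.17% beside 9.52%. RNase T1 cuts after G, and its part in the base content was not tested. The CAU element lay in 25 of the 44 exonic sites widened by 10 nt on each side, or 56.8% (95% Wilson interval 42.2% to 70.3%), beside 55.1% of all exonic sites.

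The libraries held between 4581 and 15701 clusters. The base just before the first base of a cluster was G in 74.5% to 94.7% of clusters. The 2 bio2 libraries stood apart from the other 6 reader libraries: their median cluster width was 34 and 35 nt against 40 to 43 nt, and 35.7% of their clusters lay in 3′ UTRs against 39.8% to 43.3%. Of 11 liver plasma protein transcripts chosen to check the cell type, 10 had an exonic cluster, whereas CD68 (1 cluster) was the only one of 10 leukocyte, fibroblast, endothelial and neural markers with any. The files hold called intervals with no read counts and no RNA levels. A gene without a cluster is therefore not a measured zero, and more protein on an RNA cannot be told apart from more of that RNA.

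**Figure D1:**
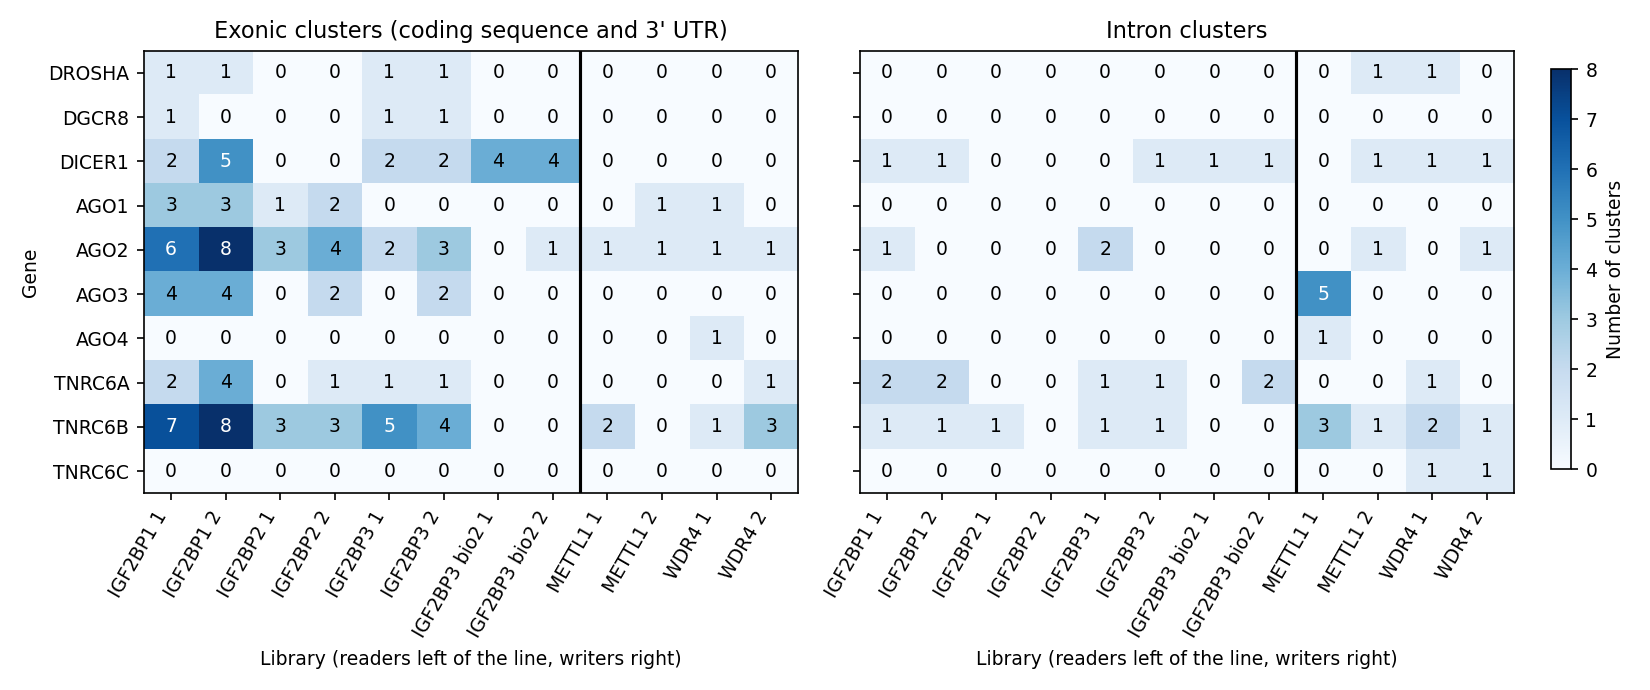
Number of exonic clusters (left) and intron clusters (right) of each of the 10 genes (rows) in each of the 12 libraries (columns), readers left of the black line and writers right of it. IGF2BP1 libraries held up to 8 exonic clusters in AGO2 and TNRC6B, the bio2 libraries held 4 each in DICER1, and AGO4 and TNRC6C had no reader cluster.

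The clusters in these genes were mostly in 3′ UTRs. Of the 171, 105 (61.4%) lay in 3′ UTRs, 22 in coding sequence, 44 in introns and none in 5′ UTRs. Readers and writers differed in this: of 134 reader clusters 93 were in 3′ UTRs, 20 in coding sequence and 21 in introns, while of 37 writer clusters 12 were in 3′ UTRs, 2 in coding sequence and 23 in introns. Taken per library, 65.5% ± 20.1 (SD, n = 8) of a reader's clusters in these genes were 3′ UTR clusters, from 37.5% to 91.7%, and 33.2% ± 8.24 (SD, n = 4) of a writer's, from 25% to 44.4%. The same share over all clusters was 40.5% ± 3.17 in readers and 19.3% ± 1.17 in writers, so the order of the classes was not particular to these genes. The ranges overlapped only through the bio2 libraries, which held 40.0% and 37.5% of their 5 and 8 clusters in 3′ UTRs. Without bio2 the reader mean was 74.5% ± 13.5 (SD, n = 6).

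The 10 genes held 0.186% ± 0.0613 (SD, n = 8) of reader clusters and 0.113% ± 0.0480 (SD, n = 4) of writer clusters. The first IGF2BP3 set was highest, with 0.247% and 0.249%, followed by IGF2BP1 with 0.214% and 0.236%. IGF2BP2 had 0.175% and 0.161%, and bio2 had 0.0774% and 0.133%. Among writers METTL1 had 0.181% and 0.0694%, and WDR4 had 0.102% and 0.0978%. The classes overlapped, since METTL1 replicate 1 lay above both IGF2BP2 libraries and both bio2 libraries. With the clusters at or above each library's median width alone, the order turned, to 0.121% ± 0.0397 in readers and 0.175% ± 0.101 in writers. The median width of the clusters in these genes was 35.1 ± 1.09 nt over reader libraries and 50.6 ± 6.24 nt over writer libraries.

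**Figure D2:**
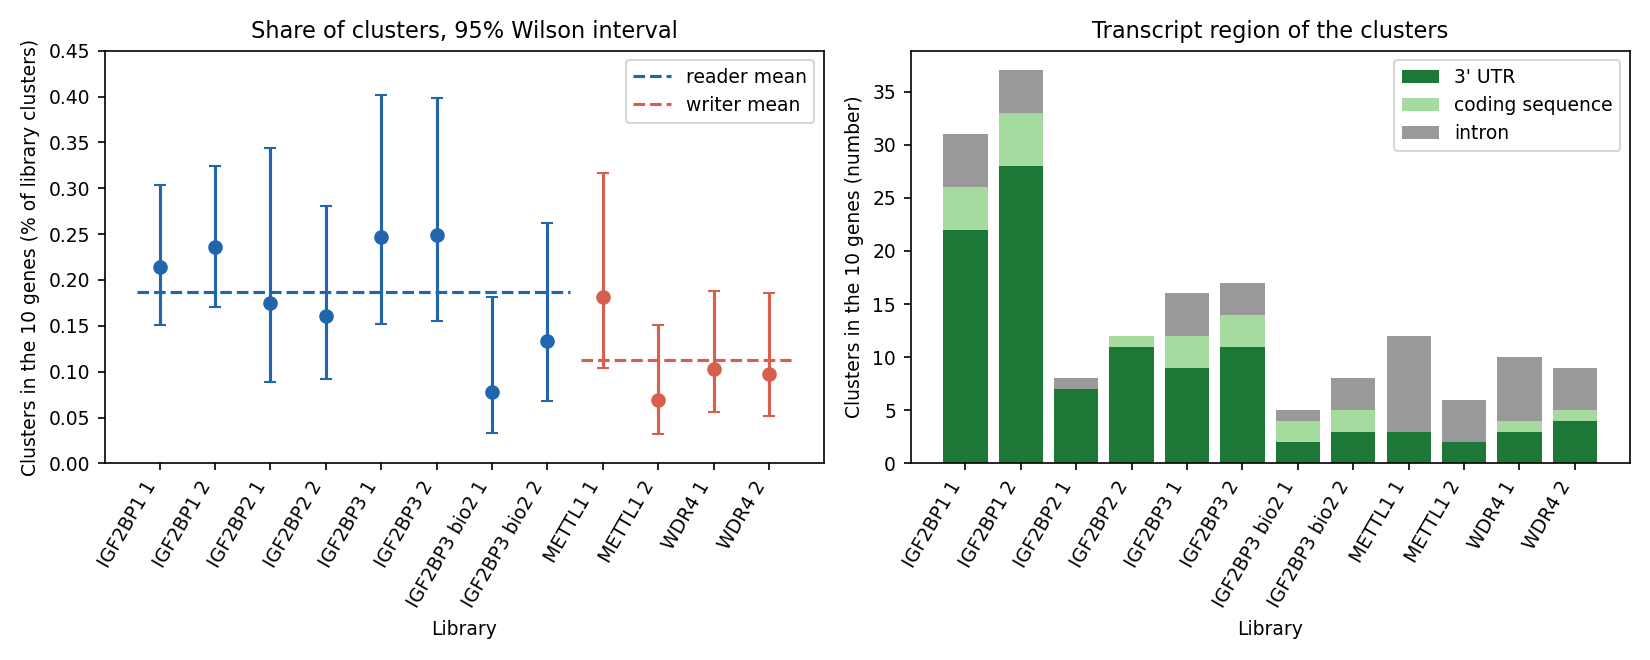
Left, percent of each library's clusters that lay in the 10 genes, with 95% Wilson intervals (counting error only) and the mean of each class as a dashed line. Right, number of these clusters by transcript region; the 3′ UTR part fills most of each IGF2BP1, IGF2BP2 and first-set IGF2BP3 bar, and introns fill 44.4% to 75.0% of each writer bar.

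Some clusters lay in repeated sequence. The central 20 nt of a cluster occurred more than once in the genome for 17.9% of the reader clusters and 45.9% of the writer clusters in these genes, beside 37.8% and 51.8% of all clusters. Reads that mapped to up to 10 places were kept upstream and reads with more were dropped. The count here is of the central 20 nt and not of whole reads, so it does not give the number of places of the reads. Whether these clusters are placed in the right gene was not tested. Such clusters made up 10 of the 44 exonic sites and 13 of the 28 intron sites.

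DROSHA, the nuclease of the Microprocessor, had 1 exonic site. It lay in coding sequence, at codon 63 in exon 5 of the MANE Select transcript (chr5:31526731-31526760), and held a cluster in both IGF2BP1 libraries and both first-set IGF2BP3 libraries, and in no other. Its sequence, printed above, held 23 pyrimidines. DROSHA also had 1 intron cluster in WDR4 replicate 1 and 1 in METTL1 replicate 2, the latter in sequence found 882 times in the genome. The 3′ UTR of DROSHA, 941 nt over all transcripts and the shortest of the 10, had no cluster.

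DGCR8, the RNA-binding partner of DROSHA, had 1 site in all, in the 3′ UTR 1317 nt after the stop codon and 447 nt before the transcript end (chr22:20111411-20111439). A cluster was present in IGF2BP1 replicate 1 and both first-set IGF2BP3 libraries. The Microprocessor pair thus had exonic clusters in IGF2BP1 and first-set IGF2BP3 libraries and in none of the IGF2BP2, bio2, METTL1 or WDR4 libraries. This rests on 1 exonic site in each gene. The share of all genes with the same set of libraries is not given here, so the pattern cannot be called particular to the pair.

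DICER1, the cytoplasmic nuclease, was the gene in which the bio2 libraries were concentrated. It held 2 and 5 exonic clusters in IGF2BP1 replicates 1 and 2, 2 and 2 in first-set IGF2BP3, 4 and 4 in bio2, and none in IGF2BP2, METTL1 or WDR4. Of the 13 clusters that bio2 had in the 10 genes, 10 were in DICER1, 2 in TNRC6A introns and 1 in AGO2, whereas of the 33 first-set IGF2BP3 clusters 5 were in DICER1, 11 in TNRC6B and 7 in AGO2. These counts add the 2 libraries of each set, and the 10 in DICER1 were the same 5 sites in both bio2 libraries. With 2 libraries against 2 this difference between the IGF2BP3 sets is a description and was not tested.

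The DICER1 clusters fell on 5 exonic sites. Site 3, in coding sequence at codon 1110 in exon 21 (chr14:95104050-95104084), and site 5, in the 3′ UTR 227 nt after the stop codon (chr14:95090255-95090287), were each present in both IGF2BP1 libraries and all 4 IGF2BP3 libraries. These were the only 2 exonic sites of the 10 genes with a cluster in all 4 IGF2BP3 libraries. Site 4, at codon 1694 in exon 23 (chr14:95095825-95095851), and site 6, 1120 nt after the stop codon (chr14:95089360-95089397), had the same 3 libraries, IGF2BP1 replicate 2 and both bio2. The remaining site, 2069 nt after the stop codon and in sequence found at 2 places in the genome, was in IGF2BP1 replicate 2 alone.

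DICER1 also had a pair of intron sites in at least 3 libraries, with opposite library sets. Site 1 (chr14:95154731-95154771) had a cluster in 5 reader libraries, IGF2BP1 replicates 1 and 2, first-set IGF2BP3 replicate 2 and both bio2, and in no writer library. Site 2 (chr14:95146929-95146996), 68 nt wide and 88.2% pyrimidine, had a cluster in METTL1 replicate 2 and both WDR4 libraries and in no reader library. Site 2 was the only site of the 10 genes present in 3 or more writer libraries and no reader library.

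AGO2, the Argonaute best known for slicing its targets, had the highest number of exonic clusters of the 4 Argonaute genes. It held 6 and 8 in IGF2BP1, 3 and 4 in IGF2BP2, 2 and 3 in first-set IGF2BP3, 0 and 1 in bio2, 1 and 1 in METTL1 and 1 and 1 in WDR4. All 31 were in the 3′ UTR, at 10 sites spread from 1124 nt to 11461 nt after the stop codon, in a 3′ UTR of 11888 nt in the MANE Select transcript. IGF2BP1, with the largest libraries, was highest in number, but per 10000 clusters of the library IGF2BP2 was highest, with 6.55 and 5.36 against 4.14 and 5.10 in IGF2BP1. All 4 writer clusters were at 1 site.

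That site, AGO2 site 11 (chr8:140522696-140522755), lay 9319 nt after the stop codon and was present in 10 of 12 libraries, all but bio2. It was the most widely shared of the 72 sites and the only exonic one reproducible for all 5 proteins, meaning present in at least 2 libraries of each. It was 93.3% pyrimidine, and the central 20 nt of its clusters occurred 4 to 58 times in the genome. AGO2 site 8 (chr8:140526172-140526226), 5845 nt after the stop codon, was in single-copy sequence and was present in the 6 reader libraries other than bio2. Site 7 (chr8:140528911-140528946), 3116 nt after the stop codon, was in both IGF2BP1 libraries, first-set IGF2BP3 replicate 2 and bio2 replicate 2. Of the 7 other exonic sites, 3 were in both IGF2BP1 libraries alone, 1 in both IGF2BP2 libraries alone and 3 in a single library.

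AGO1 had 11 exonic clusters, all in the 3′ UTR: 3 and 3 in IGF2BP1, 1 and 2 in IGF2BP2, 1 in METTL1 replicate 2 and 1 in WDR4 replicate 1. No IGF2BP3 library of either set had any. All 5 sites lay in the first part of the 3′ UTR, from 625 nt to 3885 nt after the stop codon of a 3′ UTR of 10925 nt. Site 4 (chr1:35922553-35922582) was in 4 libraries, IGF2BP1 replicate 2, both IGF2BP2 and WDR4 replicate 1. Site 3 (chr1:35920977-35921014), the G-rich one, was in both IGF2BP1 libraries and IGF2BP2 replicate 2. Site 1 (chr1:35920217-35920247) was in both IGF2BP1 libraries.

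AGO3, downstream of AGO1 on chromosome 1, had 12 exonic clusters, 4 and 4 in IGF2BP1, 2 in IGF2BP2 replicate 2 and 2 in first-set IGF2BP3 replicate 2. Of its 6 sites in the 3′ UTR, 1 was in single-copy sequence, site 6 (chr1:36056497-36056520), 763 nt after the stop codon and in both IGF2BP1 libraries. Site 11 (chr1:36071565-36071602), 15838 nt after the stop codon and found at 2 places in the genome, was in IGF2BP1 replicate 2, IGF2BP2 replicate 2 and IGF2BP3 replicate 2. Site 7 (chr1:36057689-36057743) occurred 9950 times. METTL1 replicate 1 had 5 intron clusters in AGO3, of which 4 occurred 162 to 3196 times in the genome, and no other library had an intron cluster there.

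AGO4 had 2 clusters in all. One was in an intron in METTL1 replicate 1 and the other in the 3′ UTR in WDR4 replicate 1 (chr1:35856626-35856678), and their central 20 nt occurred 457 and 50301 times. AGO4 thus had no cluster in single-copy sequence and none in a reader library.

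**Figure D3:**
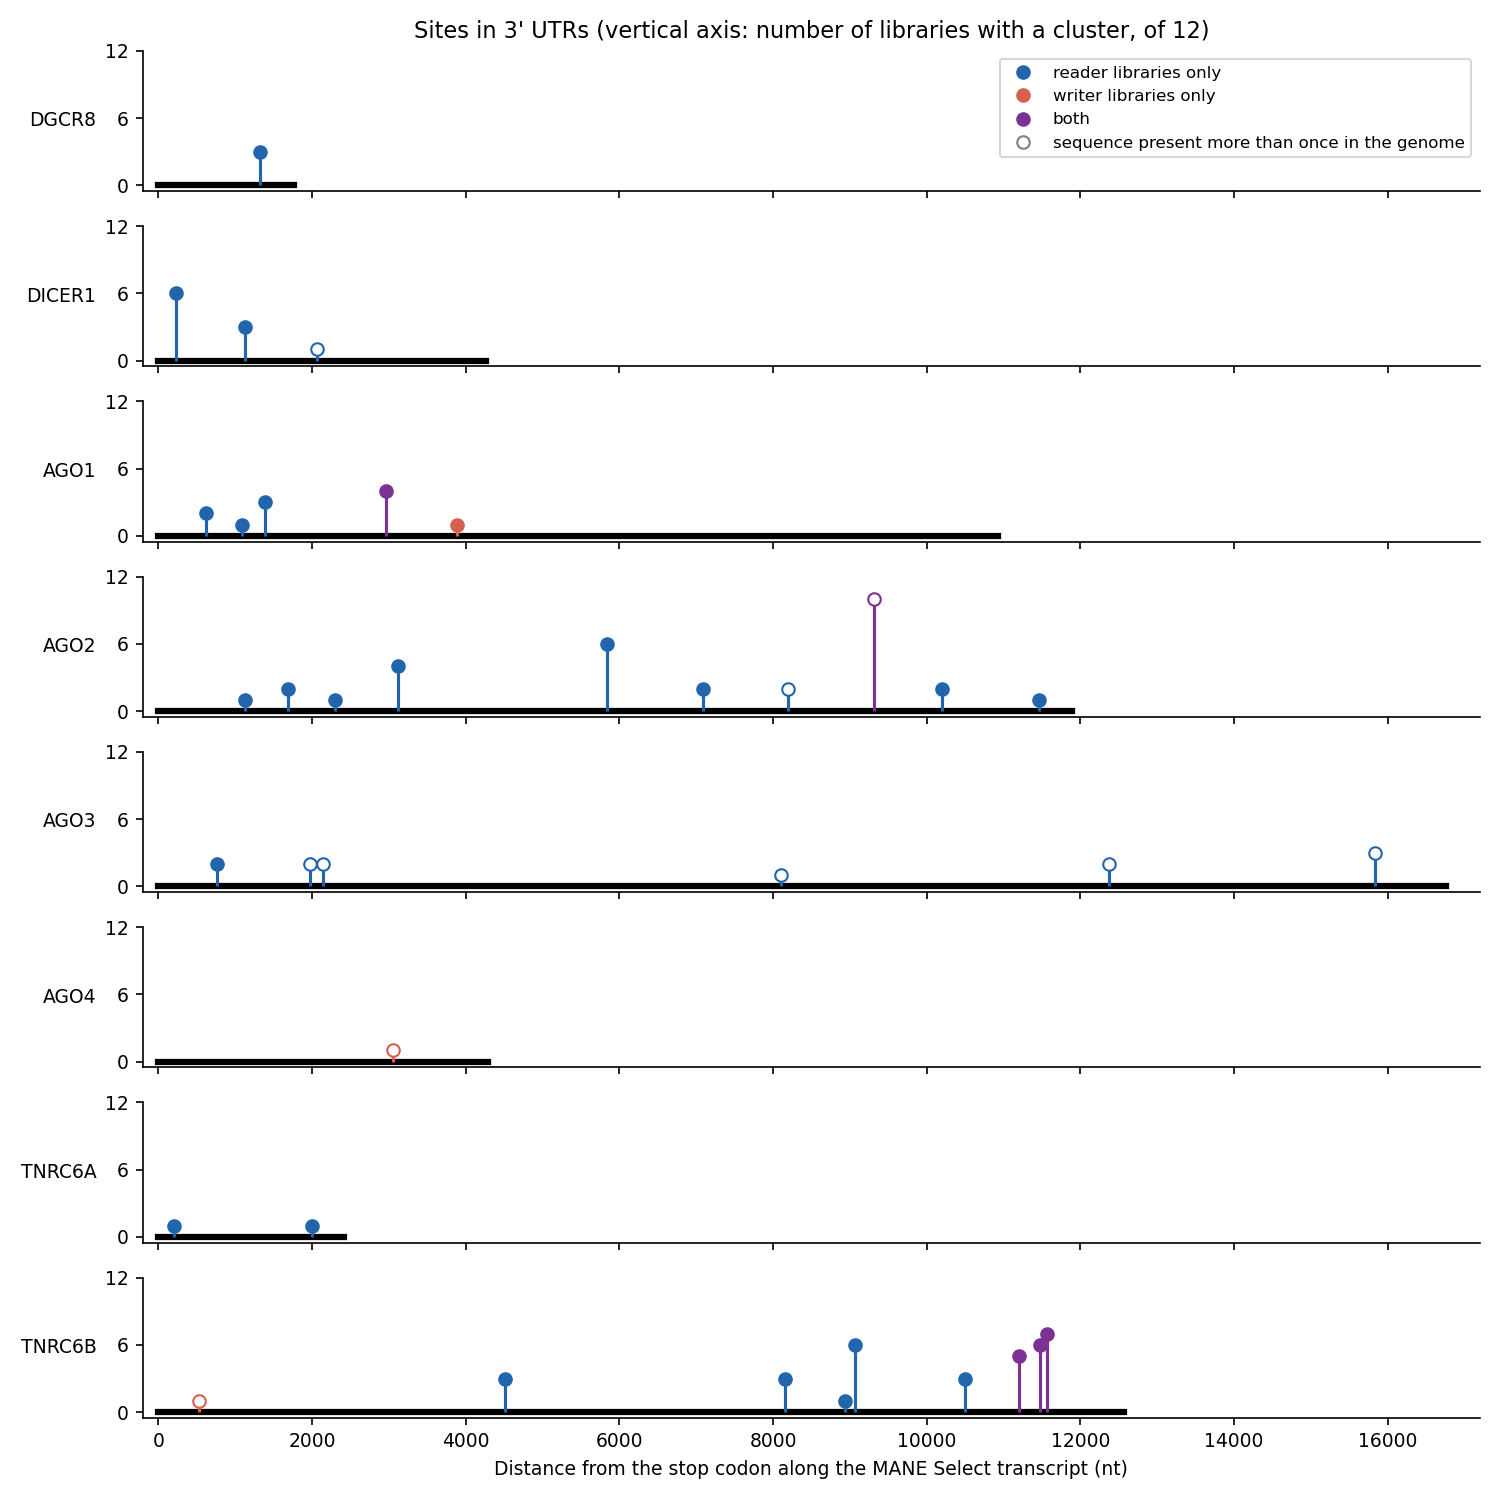
Sites in the 3′ UTR of 8 genes, plotted by distance from the stop codon along the MANE Select transcript (nt, black bar for the 3′ UTR); height is the number of libraries of 12 with a cluster, and open circles mark sites with a cluster whose central 20 nt occur more than once in the genome. AGO1 sites lie within 3885 nt of the stop codon, AGO2 sites are spread along the 3′ UTR, and 3 TNRC6B sites with reader and writer clusters lie close together near the transcript end.

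TNRC6B, a GW182 protein that links Argonaute to deadenylases, had the highest number of exonic clusters of the 10 genes, 36. It held 7 and 8 in IGF2BP1, 3 and 3 in IGF2BP2, 5 and 4 in first-set IGF2BP3, none in bio2, 2 and 0 in METTL1 and 1 and 3 in WDR4. All but 1 of these were in the 3′ UTR, at 9 sites, of which 7 lay within 5000 nt of the transcript end in a 3′ UTR of 12567 nt.

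The last 3 TNRC6B sites lay within 407 nt of one another. Site 17 (chr22:40334779-40334828), 1005 nt before the transcript end, was in 7 libraries, the 6 reader libraries other than bio2 and METTL1 replicate 1. Site 16 (chr22:40334691-40334745) was in both IGF2BP1 and both IGF2BP2 libraries, METTL1 replicate 1 and WDR4 replicate 2. Site 15 (chr22:40334422-40334463) was in both IGF2BP1 and both first-set IGF2BP3 libraries and in WDR4 replicate 2. All 3 were in single-copy sequence, and no IGF2BP3 library had a cluster at the G-rich site 16 between the other two. Site 13 (chr22:40332288-40332319), 3505 nt before the transcript end, was in the same 6 reader libraries as site 17 and in no writer library.

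TNRC6B also had an intron site in 5 reader libraries, site 2 (chr22:40049552-40049596), present in both IGF2BP1, IGF2BP2 replicate 1 and both first-set IGF2BP3. Site 3, the next intron site downstream (chr22:40050338-40050384), was in both WDR4 libraries alone. The other 5 intron sites were in 1 writer library each, and 4 of those lay in sequence found 32 to 351 times.

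TNRC6A had 10 exonic clusters, 2 and 4 in IGF2BP1, 1 in IGF2BP2 replicate 2, 1 and 1 in first-set IGF2BP3 and 1 in WDR4 replicate 2. It differed from TNRC6B in region, with 8 of its 10 in coding sequence. Site 9 (chr16:24823663-24823698), at codon 1921 in exon 25, was in both IGF2BP1 and both first-set IGF2BP3 libraries. Site 7 (chr16:24805120-24805151), at codon 1369 in exon 14, was in both IGF2BP1 libraries and IGF2BP2 replicate 2, and site 8 (chr16:24820181-24820204), at codon 1712, in WDR4 replicate 2 alone. Other annotated transcripts placed 5 of the 7 coding sites of the 10 genes in a 3′ UTR, all 3 of TNRC6A and both of DICER1. Counting them there raised the reader 3′ UTR share from 65.5% to 80.3%. An intron site of TNRC6A (chr16:24744477-24744518) was in IGF2BP1 replicate 2, both first-set IGF2BP3 and bio2 replicate 2.

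TNRC6C had no exonic cluster. Its 2 clusters were in introns, 1 in each WDR4 library, at different places, and 1 of them occurred 312 times in the genome.

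Set against other genes, TNRC6B and AGO2 ranked high in the number of sites and near the middle in their density among genes with a 3′ UTR cluster. TNRC6B and AGO2 had 10 exonic sites each, more than 96.4% of the 6225 protein-coding genes with an exonic cluster, in which the median was 2. Their merged 3′ UTRs of 13139 nt and 14056 nt were longer than 99.0% and 99.2% of those of all protein-coding genes. Per length, TNRC6B had 0.685 and AGO2 0.711 3′ UTR sites per kb, beside a median of 0.584 over 4530 genes with a 3′ UTR cluster. Genes without such a cluster are left out, so a short 3′ UTR enters this median only with a high density. The place of a long 3′ UTR against the median depends on that filter. AGO1 had 0.381 per kb, DICER1 0.312, AGO3 0.300, TNRC6A 0.251 and AGO4 0.233, all under that median. DGCR8, with 1 site in a 3′ UTR of 1767 nt, had 0.566. These lengths cover the 3′ UTRs of all transcripts, parts of which are coding in others. With the 3′ UTR taken before coding sequence in every gene, an order chosen after seeing the data, TNRC6A had 0.627, above the median of 0.594 over 4899 genes, DICER1 had 0.520, and the other genes kept their values.

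Within these genes, a larger share of sites recurred between libraries of one reader than of one writer. Of 43 sites in the 10 genes with an IGF2BP1 cluster 25 were present in both IGF2BP1 libraries (58.1%, beside 54.7% over all IGF2BP1 sites). For IGF2BP2 it was 7 of 13 (53.8%, beside 35.7%), and for IGF2BP3, over 4 libraries, 16 of 24 (66.7%, beside 58.6%). For METTL1 it was 1 of 17 (5.88%, beside 13.7%) and for WDR4 3 of 16 (18.8%, beside 15.2%). In all, 33 of the 72 sites were reproducible for at least 1 protein and 13 for at least 2, while 35 sites (48.6%, beside 60.6% of all sites) were in a single library.

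Reader libraries were also compared pair by pair. Of the sites of first-set IGF2BP3 replicates 1 and 2, 87.5% and 88.2% were also in IGF2BP1 replicate 1, and these made up 45.2% and 48.4% of its 31 sites. Of the sites of IGF2BP2 replicates 1 and 2, 75.0% and 58.3% were in IGF2BP1 replicate 1 and 87.5% and 75.0% in IGF2BP1 replicate 2. Of the sites of bio2 replicates 1 and 2, 3 of 5 and 4 of 8 were in IGF2BP1 replicate 1, and 5 of 5 and 7 of 8 in IGF2BP1 replicate 2. These made up 9.68% to 24.3% of the sites of the IGF2BP1 library. IGF2BP2 and bio2 shared none. The first IGF2BP3 set and bio2 had 5 sites in common, of 21 and 8. The same shares over all sites are not given here. These overlaps, and the lack of one, therefore cannot be called particular to the 10 genes.

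Of the 39 exonic sites with a reader cluster, 5 also held a writer cluster, or 12.8% (95% Wilson interval 5.60% to 26.7%), beside 25.5% over all exonic reader sites. These 5 were AGO1 site 4, AGO2 site 11 and TNRC6B sites 15, 16 and 17. The other 5 of the 10 exonic writer sites had no reader cluster, were in 1 library each and lay in AGO1, AGO4, TNRC6A and TNRC6B. In introns, 19 of 28 sites had writer clusters alone, 8 had reader clusters alone and 1, in AGO2, had both. Introns held 61.5% of a writer's clusters in these genes (44.4% to 75.0%) and 17.4% of a reader's (0% to 37.5%). Over all clusters they held 41.4% ± 2.52 (SD, n = 4) and 20.4% ± 3.18 (SD, n = 8). The order of the classes was therefore not particular to these genes. Of the 23 writer intron clusters, 9 were in METTL1 replicate 1.

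**Figure D4:**
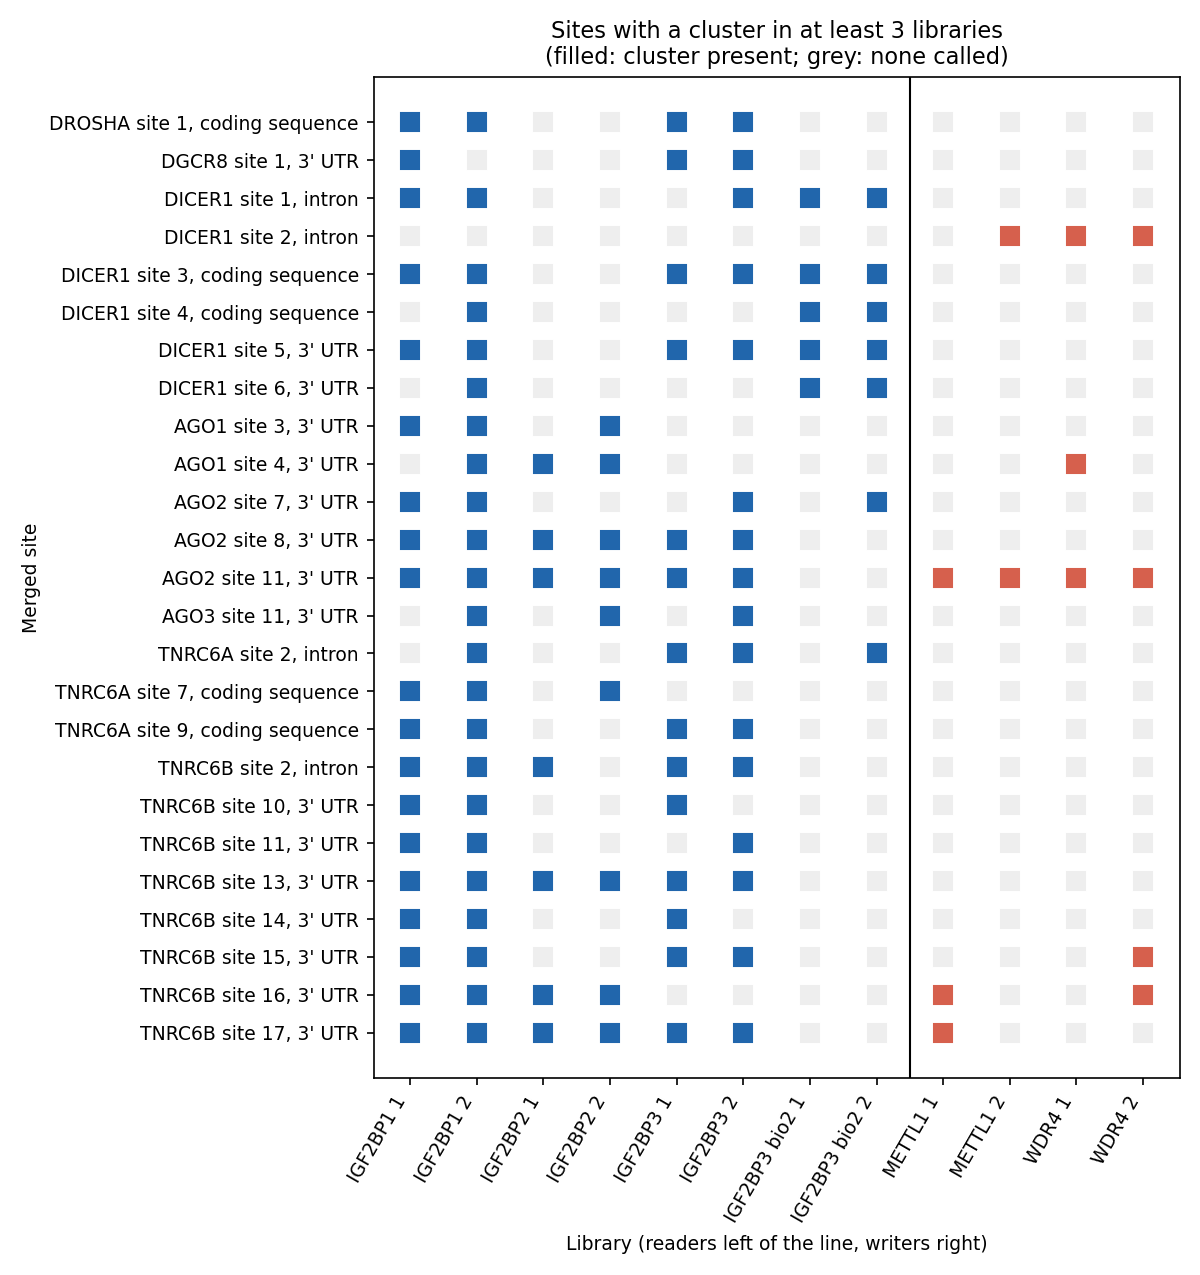
Presence of a cluster at each of the 25 sites found in at least 3 libraries (rows, by gene from DROSHA to TNRC6B) in the 12 libraries (columns); blue squares are reader clusters, red squares writer clusters and grey squares mark no called cluster. IGF2BP1 fills most rows, the bio2 columns are filled mainly in DICER1, and DICER1 site 2 is the 1 row with writer clusters alone.

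Readers and writers were then compared gene by gene by the number of exonic clusters per 10000 clusters of the library, with a two-sided exact permutation test over all arrangements of the class labels and Benjamini-Hochberg adjustment over the 4224 genes with exonic clusters in at least 3 libraries. No gene passed an adjusted p of 0.05 (0%), the lowest adjusted p being 0.0537, while 938 had an unadjusted permutation p under 0.05. Of those, 824 (19.5% of the genes tested) were higher in readers. Of the 10 genes 8 could be tested and 1, AGO2, had an unadjusted p under 0.05. The 8 differences were all toward readers, as were 78.9% of those of all genes tested, and their median was 1.06 per 10000 beside 0.567.

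AGO2 had 3.79 ± 2.13 exonic clusters per 10000 in readers (n = 8) and 1.19 ± 0.218 in writers (n = 4), with an exact permutation p of 0.0444 and an adjusted p of 0.218. With labels permuted within replicate number the exact permutation p was 0.0578 and the adjusted p 0.267. The groups overlapped through bio2, and without bio2 the exact permutation p was 0.00476 with an adjusted p of 0.0748. TNRC6B had 4.26 ± 2.86 and 1.83 ± 1.58 (exact permutation p = 0.149, n = 8 and 4, adjusted p = 0.369). Without bio2, which had no TNRC6B cluster, its difference rose from 2.43 to 3.85 per 10000, with the same exact permutation p of 0.00476 and adjusted p of 0.0748 as AGO2. DICER1 had 2.93 ± 2.51 in readers and none in writers (exact permutation p = 0.0808, n = 8 and 4, adjusted p = 0.290), as both IGF2BP2 libraries were also without a cluster. The DICER1 difference was 1.76 without bio2 (exact permutation p = 0.105, adjusted p = 0.286), and it was 3.35 without either IGF2BP2 library in turn (exact permutation p = 0.0333, adjusted p = 0.157 and 0.164). The adjusted p of AGO1, AGO3, TNRC6A, DROSHA and DGCR8 lay between 0.433 and 0.592. None of these differences had an adjusted p under 0.05. Without bio2 the smallest possible permutation p was 0.00476, which AGO2 and TNRC6B had, and no gene had an adjusted p under 0.0748. Over all genes tested without bio2, 937 had an unadjusted permutation p under 0.05, so such a p was not particular to AGO2 and TNRC6B. How many genes shared the smallest p is not given here. The adjusted p there is limited by the number of libraries. The libraries come from 5 proteins, and with the protein as the unit over all libraries no p under 0.1 is possible. The exact permutation p was then 0.2 for AGO2 and TNRC6B and 0.4 for DICER1, each with an adjusted p of 0.646.

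Site by site, presence in 8 reader and 4 writer libraries was compared with a two-sided Fisher exact test over the 10896 sites in at least 3 libraries. No site passed an adjusted p of 0.05 (0%, lowest adjusted p 0.121), and 822 (7.54%) had an unadjusted p under 0.05. Of the 25 sites tested in the 10 genes 1 did, DICER1 intron site 2 (Fisher exact p = 0.0182, adjusted p = 0.241), present in 3 of 4 writers and 0 of 8 readers. A site in 6 readers and no writer, such as AGO2 site 8, has a Fisher exact p of 0.0606. No site of the 10 genes was in more than 6 readers, so none with reader clusters alone could fall under 0.05 here. Without bio2, 5 of 23 had an unadjusted p under 0.05, beside 17.1% of the sites tested: AGO2 site 8, TNRC6B sites 2, 13 and 17, and DICER1 site 2.

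Other genes of the pathway, 40 cofactors of processing, silencing and decay were listed for comparison. Of the 40, 31 had an exonic cluster and 25 could be tested, and none passed the adjusted threshold. At an unadjusted exact permutation p under 0.05 there were 4 that were higher in readers and 1 that was lower, beside 19.5% and 2.7% of all genes tested, and the median difference of the 25 was 0.644 per 10000 beside 0.567 over all genes. DDX17 and CNOT8, with clusters in all 8 reader libraries, were among those higher, and the 1 that was lower was PAN3, a deadenylase subunit with clusters in 4 of 4 writer and 1 of 8 reader libraries. DDX17, CNOT8 and PAN3 were named after their values were seen. The 3 with clusters in all 12 libraries and the highest totals were TRIM71, a ubiquitin ligase and let-7 target, AJUBA, a LIM protein of the silencing complex, and DDX6, a helicase of mRNA decay. TRIM71 had 50 exonic clusters, 4.62 ± 0.546 per 10000 in readers and 5.32 ± 0.760 in writers. AJUBA had 45, at 4.52 ± 2.98 and 4.61 ± 1.66, and DDX6 had 34, at 3.86 ± 2.12 and 1.74 ± 0.548.

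The profile of TNRC6B over the 12 libraries was closest to that of PAICS (Pearson r = 0.921), ATG12 (0.911) and PSMD12 (0.909) among 752 genes with at least 18 exonic clusters. These are correlations of cluster shares over 12 libraries that share their depth and class, and are given as a description.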

How the data were processed

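The deposited files hold, for each of 12 PAR-CLIP libraries, the called clusters as start and end coordinates (hg38) with strand and no other value. Upstream, the authors quality-filtered and clipped reads with the FASTX toolkit, collapsed duplicates, kept reads longer than 15 nt, mapped them with Bowtie allowing 3 mismatches and up to 10 places, and called clusters with PARalyzer; versions are not given in the sources used here. Starts were read as 1-based, since the base before the interval was G far more often than its first base, the cut site of RNase T1.

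Midpoints were joined on the same strand to GENCODE release 44 with bedtools 2.31.1, in the order coding sequence, 3′ UTR, 5′ UTR, other exon, intron. Python 3.11.15, numpy 2.4.6, scipy 1.17.1, pandas 2.3.3 and pysam 0.24.0 were used for the rest. Sequence multiplicity was the number of exact matches of the central 20 nt in hg38, both strands. The gene test was checked on simulated counts, and the site test on constructed patterns of presence. The outcomes are not given here. Groups and replicate numbers came from the sample titles. Depth is the number of clusters of a library, from 4581 to 15701; Wilson intervals cover counting error only.

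The 10 genes, the lists of other pathway genes and markers, and the tests were chosen with earlier results of these data known. Named sites were the 3 exonic sites of each gene in most libraries and up to 2 intron sites in at least 3 libraries, and others are named to complete a gene. A result for 1 gene of the pathway list is not reported here. The alternatives tried were other values per gene, filters, overlaps, region orders, single-copy or wide clusters, libraries left out, labels permuted within replicate number and the protein as the unit. Single-copy clusters in the gene test, leaving bio2 out of the counts of sites, and counting sites per kb with the 3′ UTR before coding sequence, were chosen after seeing the data.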

Additional observations from a re-analysis of the deposited data

Results flagged for a closer look

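In 26 groups of 4 to 8 values, 3 single libraries stood apart from the rest of their group, and chance flags about 1 group in 20 of untied values. All 3 groups held 1 value above 0, and a single value among zeros always stands apart by this measure. AGO4 had 1.02 exonic clusters per 10000 in WDR4 replicate 1 and 0 in the other 3 writer libraries, which was 1 cluster in sequence found 50301 times in the genome. TNRC6A had 1.09 per 10000 in WDR4 replicate 2 and 0 in the other 3 writer libraries, which was 1 coding cluster in single-copy sequence. AGO3 had 2.93 per 10000 in first-set IGF2BP3 replicate 2 and 0 in the other 3 IGF2BP3 libraries, which was 2 clusters, both in sequence found more than once. All 3 rest on 1 or 2 clusters.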

How the results depend on the processing

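No gene and no site passed an adjusted p of 0.05 (permutation test and Fisher's exact test) under any alternative run, with one library left out (0 to 0) or otherwise. The number of genes at an unadjusted p under 0.05, 938 of 4224, was 554 with undivided cluster numbers, 350 with presence or absence, and 0 with the protein as the unit, where no p under 0.1 is possible; with one library left out it ran from 585 to 1002, with 603 and 585 without METTL1 replicate 1 or 2 and 594 and 589 without WDR4 replicate 1 or 2. With labels permuted within replicate number (the replicate block) it was 738, and AGO2 lost its unadjusted p under 0.05 there (0.0578); the blocked fit changed no adjusted call. Same-numbered libraries did not deviate together, with correlations over genes from -0.0516 to 0.0603 in 15 pairs of groups and 0 of them over 0.1. The number of sites, 822, was 1700 without bio2 and ran from 584 to 1488 with one library left out, with 1488 and 1411 without IGF2BP2 replicate 1 or 2; DICER1 site 2 lost its unadjusted p under 0.05 without METTL1 replicate 2 or either WDR4 replicate. The reader minus writer share of clusters in the 10 genes, 0.0737 percentage points, turned to -0.0540 among clusters at or above the median width and ran from 0.0592 to 0.0966 with one library left out. The 3′ UTR difference, 32.3 points, ran from 28.6 to 36.3. Directions turned for AGO2 with presence or absence (-0.125), and for AGO3 (-0.526) and DROSHA (-0.00301) with introns included; the cause was not tested. AGO2 kept an unadjusted p under 0.05 in 5 of 20 alternatives. DGCR8 could not be tested in 3 of the fits that left out a library, and AGO3 not with single-copy clusters. Counts of sites, reproducible sites, writer overlap and CAU share stayed within their limits. The number of clusters limits all of these.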
